A study of Mus musculus with 8 samples.

Results

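The oxidative phosphorylation genes were taken as the probe sets whose single gene symbol in the platform annotation begins with Nduf, Uqcr, Cox4 to Cox8 or Atp5, or is Sdha, Sdhb, Sdhc or Sdhd. Each gene was represented by its probe set of highest mean over the 8 arrays. This gave 90 genes, with 179 probe sets among them, of 18193 genes with a probe set of 1 symbol. By the role of each protein, 34 belonged to complex I, 4 to complex II, 8 to complex III, 18 to complex IV and 17 to complex V, and 9 matched the symbols but are assembly factors, not subunits. Ndufa4 and its relative Ndufa4l2 were placed in complex IV, where their proteins are found. Another 10 probe sets with several symbols held a match and were not used, and Ndufs6, Ndufa11 and Cox7b were not analysed here.

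Oxidative phosphorylation is the mitochondrial pathway that turns the electrons of fuel oxidation into ATP. Complex I takes electrons from NADH and complex II from succinate, both pass them through ubiquinone to complex III, cytochrome c carries them on to complex IV, which reduces oxygen, and complex V (ATP synthase) uses the proton gradient so built. Hepatocytes are rich in mitochondria, which in liver also carry fatty acid oxidation, ketone body synthesis and steps of gluconeogenesis. The subunits encoded by mitochondrial DNA do not match the symbol rule, and all genes described here are nuclear.

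The livers came from male KK-Ay mice, a strain with obesity and type 2 diabetes, at 14 weeks of age. The control diet group (CD, 4 mice) received AIN93G diet for 8 weeks, and the PD group (4 mice) received the same diet with 1 g per kg of a fat-soluble extract of persimmon peel (PP extract). Both groups were fasted briefly before the livers were taken. Per the methods of the study, the 4 livers of each group were those of mice whose plasma ketone bodies lay close to their group's average, so that the spread between these mice need not be that of the whole groups. One Affymetrix mouse array was made from each liver.

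The deposited values are log2 expression indices. Array medians lay between 7.09 and 7.16, and the arrays correlated with each other at 0.991 to 0.996 over all probe sets. Of 10 hepatocyte markers 9 were measured, and their median level was 14.0, with Alb, the serum albumin gene, at 14.7. The 9 striated muscle markers lay between 6.34 and 7.86. The levels of the oxidative phosphorylation genes are those of whole liver RNA, in which fewer cells of a type and less RNA per cell cannot be told apart.

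Promoter sequences from RefSeq (GRCm38.p6, 250 bases before to 50 after the start of a gene) were at hand for 74 of the 90 genes. The other 16 were Ndufa2, Ndufb9, Ndufs1, Ndufaf6, Sdhc, Uqcrb, Uqcrc2, Uqcrq, Cox4i1, Cox4i2, Cox6a2, Cox6c, Cox8c, Ndufa4l2, Atp5a1 and Atp5mpl. The letters of 4 motifs known from nuclear genes of mitochondrial proteins were searched on both strands: the NRF1 palindrome with any base at its centre, CCGGAAG for ETS factors such as GABP, AAGATGGC for YY1 and AAGGTCA for ERR alpha. At least 1 of them was found for 41 of the 74 genes. The 100 bases before the start are shown for 5 genes, each on its own strand from 5′ to 3′, with the matched letters in capitals. Sdhd and Uqcrfs1 are among the genes whose CD and PD mice did not overlap (given later). Sdhd has an NRF1 and an ETS match in the bases shown, and Uqcrfs1 has none in the 250 bases before the start. Matches in the 50 bases after the start count in the shares below but are not marked here. The other 3 are complex V genes that show NRF1 (Atp5c1), ETS and YY1 (Atp5j) and ERR alpha (Atp5g3).
Sdhd, chr9:50603850-50603949, minus strand: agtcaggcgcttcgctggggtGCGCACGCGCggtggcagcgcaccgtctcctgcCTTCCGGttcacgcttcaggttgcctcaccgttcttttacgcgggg
Uqcrfs1, chr13:30545317-30545416, minus strand: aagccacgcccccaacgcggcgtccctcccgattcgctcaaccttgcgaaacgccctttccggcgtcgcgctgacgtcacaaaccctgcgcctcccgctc
Atp5c1, chr2:10080433-10080532, minus strand: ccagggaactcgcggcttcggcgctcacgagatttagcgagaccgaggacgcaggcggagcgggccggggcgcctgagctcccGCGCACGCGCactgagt
Atp5j, chr16:84834977-84835076, minus strand: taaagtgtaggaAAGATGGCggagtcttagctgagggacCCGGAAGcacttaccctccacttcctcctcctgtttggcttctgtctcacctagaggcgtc
Atp5g3, chr2:73911327-73911426, minus strand: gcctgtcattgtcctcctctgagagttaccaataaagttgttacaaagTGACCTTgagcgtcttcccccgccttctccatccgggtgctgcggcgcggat
The NRF1 letters were found for 17 of the 74 genes (23.0%), against 5.19% of 27025 genes with a promoter and 7.17% of the protein-coding ones. The ETS letters were found for 25.7%, against 9.93% of all genes. The shares were 13.5% against 3.19% for YY1 and 10.8% against 5.38% for ERR alpha. Among the complexes, complex II had the NRF1 letters in 2 of 3 promoters, complex V in 6 of 15 (40.0%) and complex III in 1 of 5. Complex I had them in 5 of 31 (16.1%) and complex IV in 1 of 12 (8.33%). These shares are a description of letters in a window, and a match is not evidence of a bound factor.

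The comparison of PD with CD mice asked how 8 weeks of PP extract went with hepatic gene expression, here for the genes of the respiratory chain and ATP synthase. The differences were small and mostly of one sign. The mean was higher in PD than in CD mice for 74 of the 90 genes, and the median difference was 0.04 on the log2 scale, or 1.03-fold. The widest differences were those of Atp5mpl, a small membrane subunit of ATP synthase, at 0.15 ± 0.04 (SE) higher in PD mice, and of Cox8c, the testis form of a complex IV subunit, at 0.12 ± 0.06 lower. No gene of the 90 passed either test.

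The rank product over all 45037 probe sets called 0 of the 90 genes higher in PD mice, beside 0.2% of all probe sets, and 0 lower, beside 0.26%. The lowest false discovery rate among them was 0.919, that of Atp5mpl. limma, which sets each difference against the spread between mice, called 0 of the 90, and 0.0% of all probe sets, at an adjusted p under 0.1, and the lowest adjusted p was 0.998. Without adjustment, limma gave a p under 0.05 to 2 of the 90 genes, both higher in PD mice and both with a mean of at least 10. In that direction 1.98% of all genes passed and 2.8% of those with a mean of at least 10, and in the other 2.26% and 3.33%. The unadjusted limma p was 0.00775 for Atp5mpl and 0.0244 for Sdhd. The 95% intervals of the 90 differences reached from −0.26 to 0.30 in all and the median SE was 0.05.

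Among the oxidative phosphorylation genes the sign of the differences went with the level of the gene. Of all 18193 genes 46.5% had the higher mean in PD mice, and of the 1891 genes with a mean of at least 10 it was 53.7%. Among the oxidative phosphorylation genes 73 had a mean of at least 10, and 69 of these had the higher mean in PD mice. Their median difference was 0.05, beside 0.01 for all genes of that level. Of the other genes of that level, 52.0% had the higher mean in PD mice. Of the 17 with a mean under 10, 5 had the higher mean in PD mice, and the median of the 17 was −0.02. These 17 held all 8 tissue forms of complex IV and most of the 9 assembly factors, so that level and kind of gene cannot be told apart here. The 90 genes share arrays and mice, so that their signs are not independent of each other. With each array centred on its median, 78 of the 90 were higher in PD mice, beside 52.6% of all genes and 59.0% of those with a mean of at least 10.

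Markers of the liver's cell types were read beside these values. Of the 9 hepatocyte markers 3 had the higher mean in PD mice, with a median difference of −0.00, and the mean over the list was 13.10 to 13.27 in CD mice and 13.01 to 13.17 in PD mice. Tat, a tyrosine-degrading enzyme, was called lower by the rank product (false discovery rate 0.0283) at −0.44 ± 0.12 (SE). The 5 markers of stellate cells and fibroblasts had a median of 0.17, with 3 higher in PD mice and list means of 7.66 to 7.95 in CD mice and 7.84 to 8.02 in PD mice. Of these Col3a1, a collagen gene, was called higher (0.37 ± 0.18, false discovery rate 0.0217). Lrat, which stores retinol, differed by 0.28 ± 0.10 (SE) and was not called. The other 2 directions were down, with Col1a1, another collagen gene, lowest at −0.02. Among the adipocyte markers, with list means of 6.59 to 7.11 in CD mice and 6.68 to 7.51 in PD mice, Cidea, a lipid droplet protein, was called higher (0.81 ± 0.65, false discovery rate 0.001), while Adipoq and Lep lay at 6.31 and 6.22. limma called none of Tat, Col3a1 and Cidea, each at an adjusted p of 0.998. The part of these markers in the oxidative phosphorylation values was not tested.

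**Figure D1:**
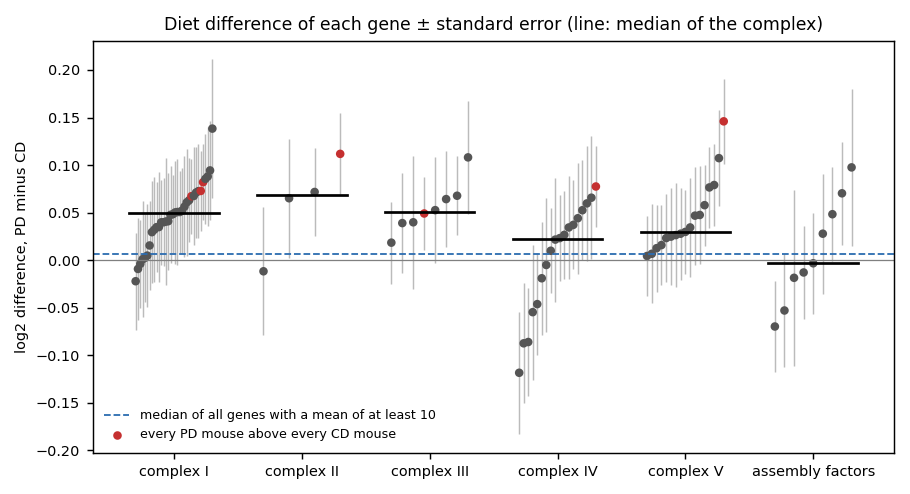
Log2 difference of PD minus CD means for each of the 90 genes, in order of size within each complex, with its limma standard error; black lines are the medians of the complexes and the dashed line is the median of all genes with a mean of at least 10. All 8 genes of complex III and all 17 of complex V lie above 0, and the differences of complex IV reach from −0.12 to 0.08.

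In complex I, 31 of 34 genes had the higher mean in PD mice, and the median difference was 0.05. The core subunits, which carry electrons from NADH to ubiquinone, were higher in 6 of 6 genes with a median of 0.07, and the accessory subunits in 25 of 28 with a median of 0.04. Ndufs7, the iron-sulfur subunit next to the ubiquinone site, had the widest difference. It read 10.98, 10.91, 10.86 and 10.73 in CD mice and 10.97, 11.20, 10.93 and 10.94 in PD mice. A single PD mouse stood above all others, and the remaining PD mice lay inside the CD range. The difference was 0.14 ± 0.07 (SE, limma adjusted p = 0.998), and a second Ndufs7 probe set gave 0.11.

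The other core subunits of complex I differed less. Ndufs1, the large iron-sulfur protein that takes electrons from the flavin subunit, averaged 10.69 ± 0.05 (SD, n = 4) in CD mice and 10.76 ± 0.06 in PD mice. Ndufv2, an iron-sulfur partner of the flavin subunit, differed by 0.07, Ndufs8 by 0.06 and Ndufs3 by 0.05. Ndufv1, which binds NADH and the flavin, averaged 11.47 in both groups, with a difference of 0.00 and an SD of 0.11 in CD mice. At the other end of the complex, Ndufa1, a small accessory subunit of the membrane arm, averaged 12.70 ± 0.02 (SD, n = 4) in CD mice and 12.68 ± 0.09 in PD mice.

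Complex II is succinate dehydrogenase, an enzyme of the TCA cycle as well. Its median difference was 0.07, with 3 of 4 genes higher in PD mice. Sdhd, a membrane anchor that helps bind ubiquinone, read 11.60, 11.62, 11.57 and 11.55 in CD mice and 11.64, 11.74, 11.70 and 11.70 in PD mice. The PD mice were all above the CD mice, by 0.03 at the closest. The difference was 0.11 ± 0.04 (SE), and a second Sdhd probe set gave 0.10 with overlapping groups. Sdhc, the other anchor, and Sdhb, the iron-sulfur subunit, each differed by 0.07, with SEs of 0.05 and 0.06. Sdha, the flavoprotein that oxidizes succinate, read 12.08, 12.11, 12.15 and 11.86 in CD mice and 12.07, 11.93, 12.08 and 12.07 in PD mice. CD replicate 4 was the lowest of the 8 and the groups overlapped, with a difference of −0.01 ± 0.07 (SE).

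In complex III all 8 genes that match the symbols had the higher mean in PD mice, with a median difference of 0.05. Among these 8, Uqcr10, a small accessory subunit, had the widest at 0.11 ± 0.06 (SE). Uqcrh, the hinge protein between cytochrome c1 and cytochrome c, had the narrowest at 0.02 ± 0.04. Cyc1, the cytochrome c1 of this complex, does not match the symbols and differed by −0.02 ± 0.05 (SE). Uqcrc1 and Uqcrc2, the large core proteins on the matrix side, differed by 0.05 ± 0.06 and 0.06 ± 0.05 (SE). Uqcrfs1, the Rieske iron-sulfur protein, read 12.22, 12.24, 12.21 and 12.19 in CD mice and 12.26, 12.27, 12.26 and 12.26 in PD mice. The groups did not overlap, although the difference was only 0.05 ± 0.04 (SE). The small mouse-to-mouse spread of this probe set (0.01 within groups) is raised by limma toward that of other probe sets, and its unadjusted p was 0.233.

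Complex V had the higher mean in PD mice for 17 of 17 genes, with a median difference of 0.03. Without CD replicate 4 it was 11 of 17, and without probe sets that can detect several genes 14 of 15, as Atp5c1 was then at −0.02. The F1 head, where ATP is made, showed the smaller differences: 0.00 for Atp5a1 (alpha subunit), 0.02 for Atp5b (the catalytic beta subunit) and 0.03 for Atp5c1 (the gamma shaft), each with an SE of 0.04 or 0.05. The membrane part and the stalk had a median of 0.05 over 12 genes. Atp5mpl (chr12:111961374-111967009) read 11.04, 10.98, 10.995 and 10.91 in CD mice and 11.12, 11.17, 11.11 and 11.12 in PD mice. All PD mice were above all CD mice, and its 95% interval from limma was 0.05 to 0.24, or a difference of 1.11-fold in the mean. Of the 3 genes for the c subunit that forms the proton-driven ring, Atp5g1 differed by 0.11 ± 0.05 (SE), Atp5g3 by 0.06 ± 0.04 and Atp5g2 by 0.03 ± 0.05. The CD and PD mice of these 3 genes overlapped.

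Complex IV split by the form of the subunit. Most of its small subunits exist in a general form and in forms known from other tissues, and 9 of the 10 general forms but 2 of the 8 tissue forms had the higher mean in PD mice. The medians were 0.03 for the general forms, −0.05 for the tissue forms and 0.02 for all 18 genes. The tissue forms had means between 6.12 and 9.05, all under 10. Cox7c, the general form that was not higher in PD mice (−0.01), was also the only general form with a mean under 10, at 6.72. The form thus went with the level of the probe sets, and the part of the level in the difference was not tested.

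Cox4i1, the general form of subunit 4, averaged 12.86 ± 0.04 (SD, n = 4) in CD mice and 12.88 ± 0.05 in PD mice, and its lung form Cox4i2 averaged 7.13 ± 0.10 and 7.08 ± 0.03. Cox5a and Cox5b, which bind on the matrix side, differed by 0.01 and 0.02. Of subunit 6a, Cox6a1 differed by 0.04 and the heart and muscle form Cox6a2 by −0.05, and of subunit 6b, Cox6b1 by 0.03 and the testis form Cox6b2 by −0.09. Cox7a2 (general) differed by 0.08 and Cox7a1 (heart and muscle) by 0.06, and Cox7b2, a testis form, by 0.07. For subunit 8 the values were 0.05 for Cox8a, −0.02 for Cox8b (heart and muscle) and −0.12 ± 0.06 (SE) for Cox8c. Ndufa4 differed by 0.03 and Ndufa4l2, known as a hypoxia-induced relative, by −0.09. The CD and PD mice of all these genes other than Cox7a2 overlapped.

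Cox8c read 9.16, 9.16, 8.97 and 9.14 in CD mice and 9.03, 8.90, 8.91 and 9.11 in PD mice. One CD mouse lay among the PD mice. The testis markers Tnp1, Prm1 and Prm2 lay at 6.75, 8.10 and 6.86. A second Cox8c probe set, at 6.94, differed by −0.15.

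**Figure D2:**
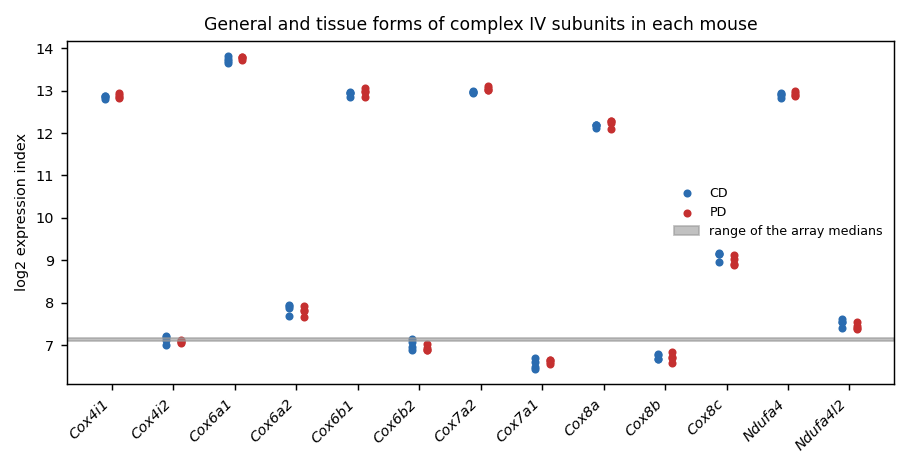
Log2 expression index of the paired general and tissue forms of complex IV subunits in each of the 8 mice (CD blue, PD red); the grey band is the range of the array medians, 7.09 to 7.16. General forms lie between 12.1 and 13.8 and tissue forms between 6.44 and 9.16, with CD and PD mice close together in each gene.

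The 9 assembly factors had a median difference of −0.00, with 4 of them higher in PD mice, and with each array centred on its median these were 0.0064 and 5. Ndufaf4 was the widest at 0.10 ± 0.08 (SE), and its partner Ndufaf3 differed by 0.07. Ndufaf8 differed by 0.05, and Cox7a2l, which joins complexes III and IV in supercomplexes, by 0.03 ± 0.06 (SE). Ndufaf1, a factor for the membrane arm of complex I, differed by −0.07 ± 0.05 (SE), Ndufaf7, a methyltransferase, by −0.05 and Ndufaf5, which modifies Ndufs7, by −0.02 ± 0.09 (SE). Ndufaf2 and Ndufaf6 differed by −0.01 and −0.00. CD and PD mice overlapped in all 9.

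For 7 of the 90 genes the PD mice were all above the CD mice, and for 0 they were all below. Over all genes the shares were 1.12% and 1.03%, and over genes with a mean of at least 10, as all 7 are, 1.96% and 0.74%. Over all probe sets they were 1.06% and 1.02%. Besides Atp5mpl, Sdhd and Uqcrfs1 the 7 held Cox7a2 and the accessory complex I subunits Ndufa6, Ndufc2 and Ndufs4. By construction such a count stays or grows when a mouse is left out. Dropping CD replicate 1 gave 14, dropping PD replicate 2 gave 16 and dropping PD replicate 3 gave 12, where 2.5%, 2.51% and 1.89% of all genes were separated in this direction. It was 4 when all probe sets of a gene were averaged, a setting for which no share over all genes was taken.

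Ndufa6, a member of the LYR protein family, read 11.77, 11.82, 11.82 and 11.78 in CD mice and 11.90, 11.88, 11.85 and 11.90 in PD mice. The groups were 0.03 apart at the closest, and the difference was 0.08 ± 0.04 (SE). Cox7a2 read 12.97, 12.997, 12.97 and 12.95 in CD mice and 13.06, 13.01, 13.02 and 13.11 in PD mice. The nearest CD and PD mice were 0.01 apart, and the difference was 0.08 ± 0.04 (SE). Ndufs4, an accessory subunit needed to complete the NADH-oxidizing part, read 10.52, 10.53, 10.57 and 10.58 in CD mice and 10.59, 10.64, 10.59 and 10.67 in PD mice. Again 0.01 separated the nearest mice, with a difference of 0.07 ± 0.04 (SE).

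Ndufc2, a membrane arm subunit, read 12.01, 12.05, 12.03 and 12.04 in CD mice and 12.08, 12.11, 12.08 and 12.12 in PD mice. The difference was 0.07 ± 0.04 (SE), and it was 0.04 on a second probe set and 0.04 as the mean of all its probe sets, with overlapping groups on the former. The limma adjusted p of all 7 genes was 0.998.

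**Figure D3:**
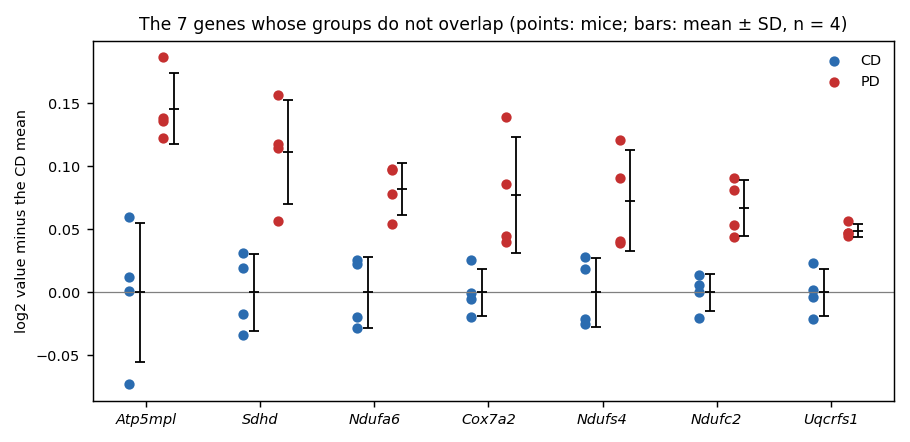
Log2 value of each mouse minus the CD mean for the 7 genes in which every PD mouse (red) was above every CD mouse (blue); bars are mean ± SD (n = 4). The mean differences run from 0.05 for Uqcrfs1 to 0.15 for Atp5mpl, and the nearest CD and PD mice are 0.01 apart in Cox7a2 and Ndufs4.

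Seen mouse by mouse, the genes of one liver tended to lie on one side. For each gene the deviation of a mouse from the mean of the 8 mice was taken and averaged over the genes. Over all 90 genes the CD mice had mean deviations of 0.01, −0.01, −0.02 and −0.06, and the PD mice of 0.03, −0.01, 0.00 and 0.05. The lowest was CD replicate 4, with 17 of 90 genes above their own mean, and the highest PD replicate 4, with 76 of 90. PD replicate 2 and PD replicate 3 lay inside the CD range, and CD and PD mice overlapped in every complex.

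The order of the mice was alike in complexes I, III and V, where CD replicate 4 was lowest and PD replicates 1 and 4 highest. CD replicate 4 deviated by −0.07 in complexes I and V, −0.09 in complex III and −0.15 in complex II, where all 4 genes read lowest of the 8 mice in it. The 10 general forms of complex IV had the same ends, with CD replicate 4 at −0.06 and PD replicates 1 and 4 at 0.04 and 0.05. The 8 tissue forms and the assembly factors had another order, and among the tissue forms CD replicate 1 was highest at 0.08 and CD replicate 3 lowest at −0.07. Without CD replicate 4 the median difference of all genes was 0.02 in place of 0.04, with 67 of 90 genes higher in PD mice. The medians were then 0.04 for complex I, 0.03 for complex II, 0.02 for complexes III and V and 0.0040 for complex IV. The median of complex IV was 0.04 when PD replicate 2 was dropped and 0.0061 when PD replicate 4 was.

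The liver of CD replicate 4 stood apart in Saa1 and Saa2 as well, which were looked up after the values above were seen. Saa1, an acute-phase protein gene, read 14.3 in it and 10.2 to 12.1 in the other 7 mice. Saa2 read 14.0 in it and 8.03 to 10.2 in the others. The leukocyte marker list (4 genes measured of 5) had a mean deviation of 0.24 in this mouse, and of −0.21, 0.03 and 0.17 in the other CD mice and −0.12 to −0.02 in PD mice. The macrophage list (6 of 7 genes) had 0.21 in it, −0.19, −0.24 and 0.19 in the other CD mice and −0.03 to 0.08 in PD mice. In both lists CD replicate 3 lay close to CD replicate 4. The part of these in the oxidative phosphorylation values was not tested.

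**Figure D4:**
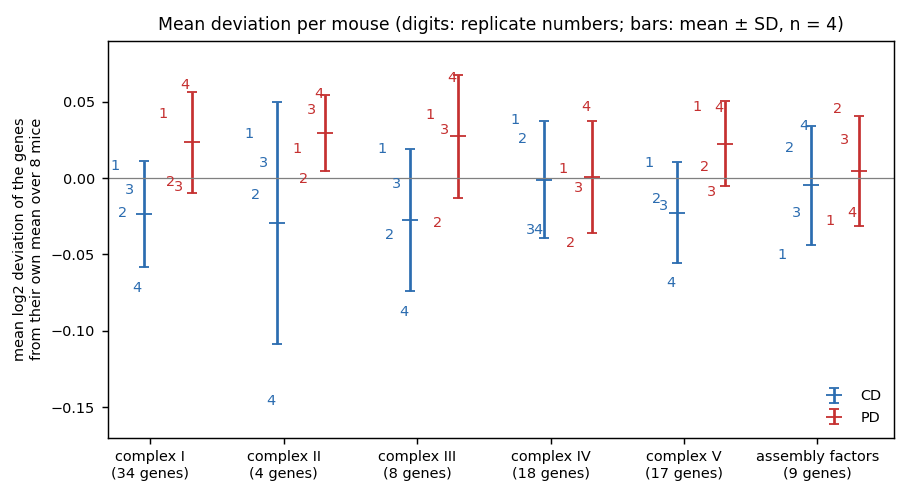
Mean log2 deviation of the genes of each complex from their own means, per mouse; digits are replicate numbers (CD blue, PD red) and bars are mean ± SD (n = 4). CD replicate 4 is the lowest mouse in complexes I, II, III and V, and CD and PD mice overlap in all 6 groups of genes.

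The spread between mice of one diet was small in these genes. The median within-group SD was 0.06 over the 90 genes and 0.08 over all genes. By complex it was 0.06 for complex I, 0.07 for complexes II and III, 0.08 for complex IV, 0.05 for complex V and 0.07 for the assembly factors. The smallest were those of Uqcrfs1 (0.01), Ndufc2 (0.02), Ndufa6 (0.02), Ndufb11 (0.03) and Atp5d, the delta subunit of ATP synthase (0.03). The largest were those of Ndufaf5 (0.16), Ndufaf4 (0.14), Ndufs7 (0.12), Cox6a2 (0.11) and Cox7c (0.11).

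Of these 5 of largest spread, Ndufaf5, Cox6a2 and Cox7c had dim probe sets, at 7.77, 7.82 and 6.72. Cox7c and Ndufb4 are general subunits, and their single-symbol probe sets, at 6.72 and 6.20, lay below the array medians. They differed between the diets by −0.01 and 0.00. The other 9 general complex IV genes had means between 12.2 and 13.7.

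**Figure D5:**
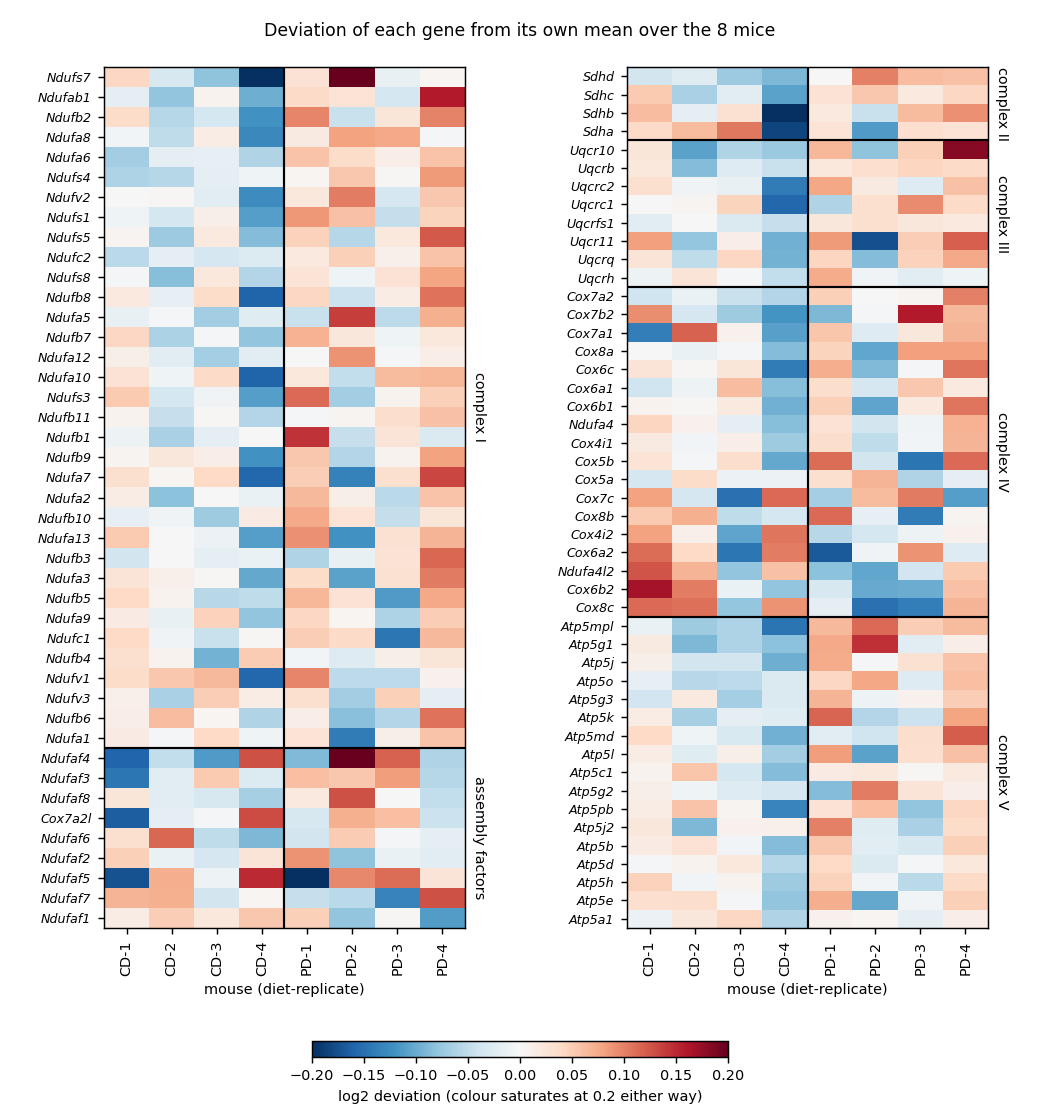
Log2 deviation of each of the 90 genes (rows) from its own mean over the 8 mice (columns, CD left and PD right of the line), with genes ordered by PD minus CD within each group. The column of CD replicate 4 is mostly blue (17 of 90 genes above their mean) and that of PD replicate 4 mostly red (76 of 90).

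Levels are given for each complex as a description, since the level of a probe set holds its own affinity and different probe sets cannot be ranked. The median log2 level was 11.7 in complex I, 11.8 in complex II, 12.0 in complex III and 12.5 in complex V. In complex IV it was 12.9 for the general forms and 7.04 for the tissue forms, and it was 9.43 for the assembly factors. With their limma SEs, which had a median of 0.05, a difference of 0.04 is within the error of a single gene.

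Of the 51 genes with more than 1 probe set, 36 had more than 1 with a mean of at least 10. In 32 of them these probe sets differed in one direction, and in Cox7a2l, Ndufv1, Sdha and Ndufb2 in both. The 53 bright probe sets that had not been chosen had the higher mean in PD mice in 49 cases, with a median difference of 0.04, and 1 of them had non-overlapping groups. They were hybridized with the same RNA and are no further replicates.

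Genes around the respiratory chain were read in 5 lists, and 0 of them were called by either test. Of the assembly factors with other names, 21 of 28 measured had the higher mean in PD mice, and the median difference was 0.02. Among them Cox17, a copper chaperone of complex IV, differed by 0.11 ± 0.04 (SE), or 0.05 on a probe set not marked as able to detect several genes. Sdhaf4, an assembly factor of complex II, differed by 0.13 ± 0.05. In both the PD mice were all above the CD mice, by only 0.00034 at the closest in Cox17 and by 0.02 in Sdhaf4. Sco2, another copper chaperone, differed by −0.27 ± 0.13 (SE). The carriers of electrons and related subunits were higher in 3 of 6 genes, with a median of 0.01, and Cycs (cytochrome c) differed by 0.06 ± 0.05 (SE) and Cyc1 (cytochrome c1 of complex III) by −0.02 ± 0.05.

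Of the TCA cycle enzymes 9 of 12 had the higher mean in PD mice, and the median difference was 0.04. Fh1 (fumarase) differed by 0.10 ± 0.07 (SE). The mitochondrial carriers and channels were higher in 5 of 6 genes, with a median of 0.05. Vdac2, a channel of the outer membrane, differed by 0.15 ± 0.06 (SE), and its groups did not overlap, with 0.0036 between the nearest mice.

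Regulators of mitochondrial genes were higher in 8 of 14 genes, with a median of 0.01. Ppargc1b, a coactivator of the ERR and NRF1 pathways, read 8.82, 9.07, 9.18 and 9.03 in CD mice and 9.22, 9.60, 9.34 and 9.20 in PD mice. All PD mice were above all CD mice, and the difference was 0.31 ± 0.10 (SE), with a rank product false discovery rate of 0.123 and a limma adjusted p of 0.998. Its relative Ppargc1a differed by 0.16 ± 0.11 (SE), and Pprc1 by −0.16 ± 0.08. Nrf1, whose motif was searched above, averaged 7.51 ± 0.12 (SD, n = 4) in CD mice and 7.36 ± 0.10 in PD mice. Gabpa, Yy1 and Esrra, which bind the other 3 motifs, differed by −0.02, −0.04 and 0.01, and Tfam, the packaging factor of mitochondrial DNA, by 0.02 ± 0.06 (SE).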

How the data were processed

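Total RNA from 4 CD and 4 PD livers was hybridized to Affymetrix mouse arrays. The authors deposited log2 values of an expression index. The submitters' notes name R 2.7.2, and the sources used here do not state how arrays were normalized against each other. The values were used as deposited. Arrays give no counts, and their number limits the precision.

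Without 64 control probe sets, 45037 were tested (34945 carried 1 symbol, 932 several and 9160 none). The rank product ranked every PD array against every CD array (Python 3.11.15, numpy 2.4.6) with 1000 permutations of the values within arrays and called a false discovery rate under 0.1. limma 3.58.1 (R 4.3.3) used the whole table and called a Benjamini-Hochberg adjusted p under 0.1. SEs, 95% intervals and p-values are from limma. Both tests were tested on simulated data with shifts larger than any difference of the 90 genes. Whether they can call differences as small as those was not tested. All 90 genes were located in RefSeq (GRCm38.p6).

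The genes and lists were chosen with earlier results of these data known. Named genes were those called or not overlapping, the widest differences in each complex, core subunits, tissue forms, assembly factors, the 5 largest and 5 smallest spreads, and called genes of the side lists, of which there were 0. Called genes of the marker lists are named too. The other side-list genes, Lrat and Col1a1 of the marker lists, regulators and partners named were picked after their values were seen. Alternatives were quantile normalization, centring, 16 added before log2, dropping dim or multi-gene probe sets, averaging probe sets, other pairings and variance models, the methods' t-test and leaving out each mouse. Replicate numbers did not pair the mice.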

Additional observations from a re-analysis of the deposited data

Results flagged for a closer look

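In the 90 genes, the gene groups and the neighbouring genes named, each diet group of 4 mice was searched for a mouse far from the other 3, and 11 of the 224 groups held one. Chance flags about 1 in 20 such groups. In 5 of the 11 the mouse was CD replicate 4, each time the lowest: Cox6b1 read 12.85 in it (12.95 to 12.97 in the other CD mice), Cox6c 12.54 (12.68 to 12.71), Cox8a 12.11 (12.19 to 12.2), Ndufb9 12.38 (12.5 to 12.52) and Ndufv1 11.31 (11.5 to 11.53). In other CD mice Atp5j2 read 12.45 in CD replicate 2 (12.55 to 12.56 in the others) and Cox8c 8.969 in CD replicate 3 (9.136 to 9.16). PD replicate 2 stood apart in Sdha, the succinate-oxidizing subunit, at 11.93 (12.07 to 12.08 in the other PD mice), and on the high side in Ndufs7, a core subunit of complex I, at 11.2 (10.93 to 10.97). Ndufc1 read 11.61 in PD replicate 3 (11.79 to 11.82 in the others), and Uqcrh 11.85 in PD replicate 1 (11.75 to 11.77).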

How the results depend on the processing

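Under every alternative run, and with each mouse left out in turn, the rank product and adjusted limma called 0 of the genes. With the replicate number as a block both gave 0, and 1 gene had an unadjusted limma p under 0.05. Same-numbered mice did not deviate together (correlations of −0.06 to −0.00). At an unadjusted p under 0.05 the methods' t-test passed 10 of the 90 genes, all higher in PD mice, and after adjustment 0. It passed 3.8% of all probe sets, counted in both directions and at all levels. The share in one direction or among bright genes was not taken for this test. Per the methods of the study, the genes of the arrays were called by the rank product. limma passed 1 to 4 of the genes unadjusted over its alternatives.

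Genes whose PD mice were all above the CD mice numbered 7 to 16 with a mouse left out, beside 1.89% to 3.13% of all genes. With all probe sets of a gene averaged they numbered 4, and no share over all genes was taken for that setting. Those whose PD mice were all below numbered 0 to 3 of the 90 genes, beside 1.81% to 4.02% of all genes. There were 3 without CD replicate 3, where the share of all genes was 4.02%. There was 1 without each of CD replicate 4, PD replicate 1 and PD replicate 4, where the shares were 2.1%, 2.82% and 2.54%. The median of the assembly factors ran from −0.0208 to 0.0430 with a mouse left out. The other 91 medians moved by less than the spread between mice, and all kept a median above 0 except the assembly factors. Without CD replicate 4 the median of all genes fell from 0.04 to 0.02 and that of complex IV from 0.02 to 0.0040. Both falls were less than the spread between mice, so the count of 91 is no measure of stability either. Of 1344 values of single genes under alternatives, 1339 moved by less than that spread. Leaving out 1 mouse of 4 cannot move the difference of a probe set by that much. Such values could not count as moved, and the count of 1339 is no measure of stability for them. A change of sign within the spread was not counted as a move. The 5 others came from a change of probe set: Ndufc2 (0.04 under both such changes), Ndufa12 (0.0047), Atp5c1 (−0.02) and Cox17 (0.05). The filter on dim probe sets left 83 of the 90 genes, and removing probe sets that can detect several genes left 85. Values near or below the array medians limit what can be said of the tissue forms, Cox7c and Ndufb4.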
